A study of Rousettus aegyptiacus with 32 samples.

Results

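Open chromatin of the cerebellum was compared with that of the striatum in the Egyptian fruit bat, Rousettus aegyptiacus, over 6 of the 32 libraries of the series. The 6 were chosen by their tissue labels: 2 libraries of cerebellum, 2 of the caudate nucleus and 2 of the putamen, the caudate and putamen together forming the striatum. Each tissue gave 1 ATAC-seq library from each of the same 2 animals, bats 1 and 3, both adult males, and each library was made from nuclei of frozen bulk tissue. ATAC-seq uses a transposase that inserts into accessible DNA, so that enriched intervals (peaks) mark open chromatin. The series, whose aim is the convergent evolution of regulatory elements with vocal learning, holds 20 ATAC libraries of 10 tissues, and the other 14 were used here only to see where else the regions found were open. The caudate and putamen libraries of a bat come from 1 animal, so the striatum has 4 libraries but only 2 animals.

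The 2 tissues are built from very different neurons. The cerebellum is dominated by glutamatergic granule cells, with Purkinje cells as the output neurons of its cortex. The striatum, part of the telencephalon as the cerebral cortex is, consists mostly of GABAergic medium spiny neurons. Promoters of widely used genes tend to be open in most cell types, while distal regulatory elements such as enhancers are more often open in a few of them. In bulk tissue a weaker peak can come from fewer cells with the region open or from less accessibility per cell, which cannot be told apart. The tissue labels were not checked against marker genes, because the gene table at hand gives a scaffold for 0 of its genes. Regions are therefore named by position on the scaffolds of the deposited peak lists, in coordinates counted from 1, with 1 added to each deposited start. The sources used here do not give the genome build.

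Each list held 300000 rows, which merged to 168369 to 189995 separate intervals covering 92.9 to 127 Mb. The lists end at different depths. The weakest peak had a -log10 p of 5.28 and 3.53 in the cerebellum of bats 1 and 3, of 12.3 and 4.65 in the caudate, and of 6.45 and 5.71 in the putamen. Absence from a list therefore means below those values, the highest of which was in the caudate of bat 1. A strong peak is one of the 50000 intervals of a library with the highest -log10 p, and the interval at rank 50000 had a -log10 p of 35 and 16.3 in the cerebellum, 196 and 65.5 in the caudate, and 102 and 51.1 in the putamen (bats 1 and 3). The next interval in each list had nearly the same -log10 p. In the caudate of bat 1, the least alike of the 6 pairs, the intervals at ranks 50000 and 50001 had 8.40- and 6.74-fold enrichment. Fold enrichment and -log10 p are the authors' own values from their peak caller, with no common scale across libraries.

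The cerebellum shared far fewer open bases with the striatum than either tissue shared with itself. Among the 50000 strongest intervals, the bases common to a cerebellar and a striatal list made up 0.243 to 0.281 of the bases in at least 1 of the pair, a share known as the Jaccard index, with a mean of 0.266 ± 0.0148 (SD, n = 8 pairs). The 6 pairs of striatal lists reached 0.632 to 0.716, with a mean of 0.665 ± 0.0293 (SD, n = 6 pairs), and the cerebella of the 2 bats shared 0.692. Pairs of the same tissue exceeded pairs of different tissues by 0.404. An exact 2-sided permutation of the 6 libraries gave p = 0.0667, the smallest that 15 arrangements allow. Sharing an animal made little difference: cerebellum and striatum of the same bat shared 0.266 ± 0.0153 and those of different bats 0.265 ± 0.0167 (SD, n = 4 pairs each). The putamen stood closer to the cerebellum than the caudate did. The 4 putamen pairs lay between 0.277 and 0.281, and the 4 caudate pairs lay below them, between 0.243 and 0.26. These 8 pairs share libraries, and the gap between the 2 striatal parts was not tested.

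When all intervals of the 6 lists that share at least 1 base were merged, they formed 360570 regions. Of these, 99672 held peaks of both tissues, 132527 held only cerebellar peaks and 128371 only striatal ones. Most of the 1-tissue regions were not repeated in every library: 53266 held a peak in both cerebellar lists and none in the striatum, and 55663 a peak in all 4 striatal lists and none in the cerebellum. Another 56901 regions had a peak in all 6. Peaks of a single library made up 79261 of the cerebellar regions and 31477 of the striatal ones, where a cerebellar region had to be missing from 1 further list of its tissue and a striatal one from 3.

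Among the 91221 regions with a strong peak in at least 1 of the 6 libraries, 8382 were cerebellum-only, strong in both cerebellar libraries and without any striatal peak, however weak (9.19% of them). A further 8492 were striatum-only, strong in the caudate and putamen of both bats and without a cerebellar peak (9.31%). Strong peaks in all 6 libraries were the largest class, at 20077 regions (22.0%). Seen from each tissue, the cerebellum-only class was 19.5% of the 42993 regions strong in both cerebella, and the striatum-only class 23% of the 37001 strong in all 4 striatal libraries. With 2 libraries against 4, no single region can reach a p under 0.05 by presence alone, so these counts are descriptions. They follow the thresholds closely: absence of a strong peak, in place of any peak, gave 18269 cerebellum-only and 15109 striatum-only regions, and counting every deposited peak as present gave the 53266 and 55663 above. Which class was the larger also changed with the rule.

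A strong peak in 1 striatal part with no peak at all in the other was rare. Without any cerebellar peak, 3 regions were strong in both caudate libraries and absent from the putamen, and 4 were strong in both putamen libraries and absent from the caudate. Classed with 1 part alone, the striatum-only regions numbered 13531 for caudate and 9876 for putamen, against 8492 when both had to be strong. Of the regions strong in both cerebella, 492 were absent from the caudate but had a peak in both putamen libraries, against 166 absent from the putamen with a peak in both caudate libraries. The higher floor of the caudate list of bat 1 moves in the same direction as this last difference, and its part in it was not tested.

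A class chosen in 1 bat was looked up in the other, which shares no library with it. In bat 1 alone, 11552 regions were strong in cerebellum and without a peak in caudate and putamen. In bat 3, 79.2% of these were again strong in cerebellum, 98.8% had a cerebellar peak of any rank and 7.91% had some striatal peak, but only 0.026% had a strong one. All 49062 regions strong in the cerebellum of bat 1 repeated somewhat more often, 87.6% of them being strong and 99.3% having a peak in the cerebellum of bat 3, but 76% had a striatal peak there and 52.1% a strong one. Choosing in bat 3 gave 11376 regions, of which 81.4% were strong in the cerebellum of bat 1 and 9.41% had a striatal peak there. For the striatum, the 12964 regions chosen in bat 1 were strong in both striatal libraries of bat 3 in 77.5% of cases and had a cerebellar peak in 14.3%, while of the 11096 chosen in bat 3, 86.5% were strong in both striatal libraries of bat 1 and 11.6% had a cerebellar peak. Over all regions strong in both striatal libraries of the choosing bat, 88% and 90.9% were strong again, and 70.2% and 71.5% had a cerebellar peak (chosen in bats 1 and 3). Strong peaks in the opposite tissue of the second animal were rare for every choice, at 0.026% to 0.243% of the regions.

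The strongest peaks were common to both tissues, and tissue-only peaks became more frequent down the lists. Of the 1000 strongest intervals, 3.2% and 2.4% in the cerebellum of bats 1 and 3 had no striatal peak, and 0.2% to 0.3% in the 4 striatal libraries had no cerebellar one. Between ranks 40001 and 50000 the shares were 29.9% and 30% in the cerebellum and 38.6% to 43.8% in the striatum. A cerebellar interval had to miss 4 striatal lists to be counted and a striatal interval only 2 cerebellar ones, which lowers the cerebellar shares by construction, so the levels of the tissues are not compared. The putamen of bat 3 departed from the other 3 striatal libraries near the top, where 0.8% of its intervals at ranks 1001 to 5000 had no cerebellar peak, against 4.5% to 7.55% in the others.

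**Figure D1:**
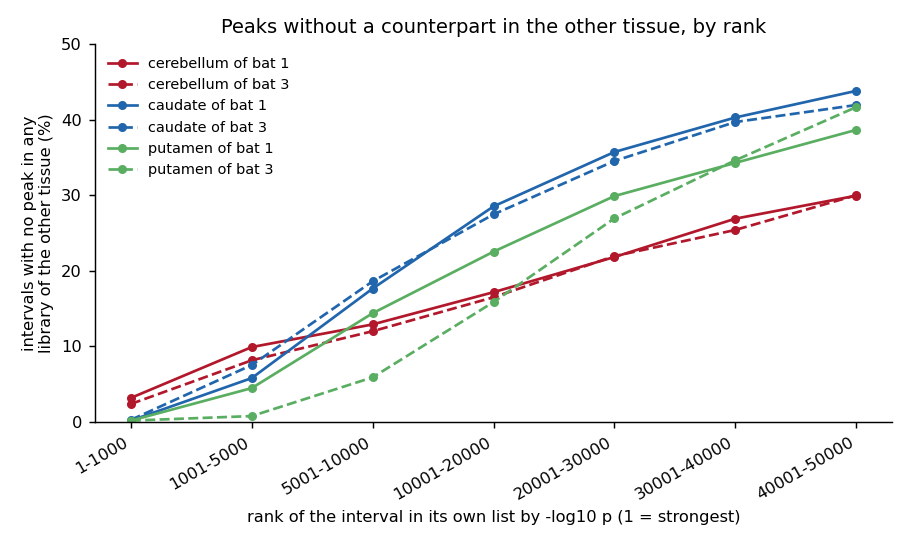
Percentage of intervals with no peak in any library of the other tissue (y axis) by the rank of the interval in its own list (x axis), for the 6 libraries (colour, tissue; solid line, bat 1; dashed line, bat 3). All 6 lines rise along the list, the cerebellar ones from 3.2% and 2.4% to 29.9% and 30%, with 4 lists to miss for a cerebellar interval and 2 for a striatal one.

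Both classes had members near the top of the lists. The cerebellum-only region with the best of the worse ranks lay on scaffold NW_023416308.1, bases 103309378 to 103310297. It ranked 75 and 197 in the cerebellar lists of bats 1 and 3, with 26.4- and 24-fold enrichment over 920 and 899 bases, and no cortical library had a peak there. The next 2 lay within 1 Mb of each other on scaffold NW_023416286.1. The region at bases 81331144 to 81332418 ranked 226 and 207 (25.1- and 24.4-fold), and that at bases 80652483 to 80653420 ranked 249 and 244 (24.9- and 25.9-fold). Neither had a peak in the 8 cortical libraries. The region at bases 28381365 to 28382421 of scaffold NW_023416295.1 ranked 192 and 255 (22.2- and 23.3-fold), again without a cortical peak. The fifth, at bases 80185907 to 80186890 of scaffold NW_023416311.1, ranked 339 and 308 (20.2- and 18.9-fold) and differed from the others in the forebrain, since all 8 cortical libraries had a strong peak there although the striatum had none. The sixth, at bases 38543886 to 38544599 of scaffold NW_023416295.1, ranked 274 and 354 (21.3- and 21.7-fold), with a weak peak in 2 cortical libraries. This sixth region had no peak in liver, muscle or testis, while the others had one in 1 to 4 of those 6 libraries. Over all cerebellum-only regions, 62.1% had a peak in at least 1 of them.

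The striatum-only regions were led by an unusual one. At bases 49387581 to 49388378 of scaffold NW_023416308.1, the ranks were 43 and 9 in the caudate of bats 1 and 3 and 419 and 92 in the putamen, yet the fold enrichment was only 7.16, 8.93, 7.3 and 6.44. All 8 cortical libraries had a peak there, 6 of them a strong one. It begins shortly after the end of a region on the same scaffold, bases 49383812 to 49385046, that was among the 5 strongest in all 6 lists. The other 5 combined high ranks with high folds. At bases 47338106 to 47339116 of scaffold NW_023416287.1 the caudate ranks were 1119 and 969 (21- and 22.8-fold) and the putamen ranks 933 and 887 (24.4- and 21.4-fold), and all 8 cortical libraries had a peak. At bases 57538931 to 57540503 of the same scaffold the ranks were 1000 and 911 in caudate (19.7- and 22-fold) and 1578 and 2053 in putamen (19.6- and 16.5-fold), with a peak in all 8 cortical libraries, none of them strong. The highest folds, 28 and 29.7 in caudate and 31.1 and 26 in putamen, were at bases 7491790 to 7492818 of scaffold NW_023416295.1. The remaining 2 lay at bases 24519286 to 24520277 of scaffold NW_023416289.1, with ranks of 1244 to 2521 and strong peaks throughout the cortex (8 of 8 libraries), and at bases 34589013 to 34590300 of scaffold NW_023416288.1, with ranks of 1551 to 2766 and a peak in 2 cortical libraries. Outside the brain, each of the 6 striatum-only regions had a peak in 2 to 5 of the 6 libraries of liver, muscle and testis. Over all striatum-only regions, 72.5% had a peak in at least 1 of these libraries.

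At the very top the lists of both tissues began with the same regions. The region at bases 124334499 to 124335693 of scaffold NW_023416295.1 was first in every list, with 28.1- and 26.5-fold enrichment in cerebellum, 24.2- and 27.6-fold in caudate and 21- and 18.2-fold in putamen. Its -log10 p was 16470 to 34295. The region at bases 33375627 to 33377360 of scaffold NW_023416312.1 was second in every list, with 18.2- and 19.5-fold enrichment in cerebellum and 13.7- to 16.1-fold in striatum. Both had strong peaks in all 8 cortical libraries and a peak in all 6 libraries of liver, muscle and testis.

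Peaks were narrower in the cerebellum. Among the 50000 strongest intervals the median width was 767 and 723 bases in the cerebellum of bats 1 and 3, 1007 and 855 in the caudate, and 864 and 931 in the putamen. Both cerebellar values lay below all 4 striatal ones, and the means were 745 ± 31.1 bases (SD, n = 2) and 914 ± 70.5 bases (SD, n = 4). The difference had an exact permutation p of 0.0667 (2-sided, 15 arrangements), the smallest possible. Over all deposited intervals, or over the 25000 strongest, p was 0.133. The depth of the lists moves with width: the caudate of bat 1 had both the widest peaks and the highest -log10 p at rank 50000, and the cerebellum of bat 3 the narrowest and the lowest, and the part of depth in the difference was not tested.

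Tissue-only regions were narrower than those shared by all. The merged regions had a median width of 865 bases for cerebellum-only, 1027 for striatum-only and 1246 for those strong in all 6, where the number of lists merged adds to the width. Within single libraries the order was the same. In cerebellum, peaks covered a median of 815 and 752 bases of cerebellum-only regions and 858 and 821 of those strong in all 6. In striatum, peaks covered 836 to 968 bases of striatum-only regions and 1003 to 1154 of those strong in all 6. Enrichment also differed between these classes, but less evenly. It was a median of 8.14- and 6.99-fold at cerebellum-only regions, against 12.6- and 11-fold at regions strong in all 6 in the same libraries. In striatum the medians were 12.8-, 13.5-, 12.2- and 9.14-fold at striatum-only regions (caudate of bats 1 and 3, then putamen) and 13.4-, 14.5-, 14.5- and 12.1-fold at regions strong in all 6. Cerebellum-only regions thus had about the enrichment of the upper list as a whole, where the medians of the 50000 strongest were 8.86 and 7.67. The classes differed in rank too. Median ranks in cerebellum were 26984.5 and 27655 at cerebellum-only regions and 14677 and 14522 at those strong in all 6. In striatum they were 21699 to 29900.5 at striatum-only regions and 11512 to 15007 at those strong in all 6. The part of rank in the differences of width and enrichment was not tested.

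**Figure D2:**
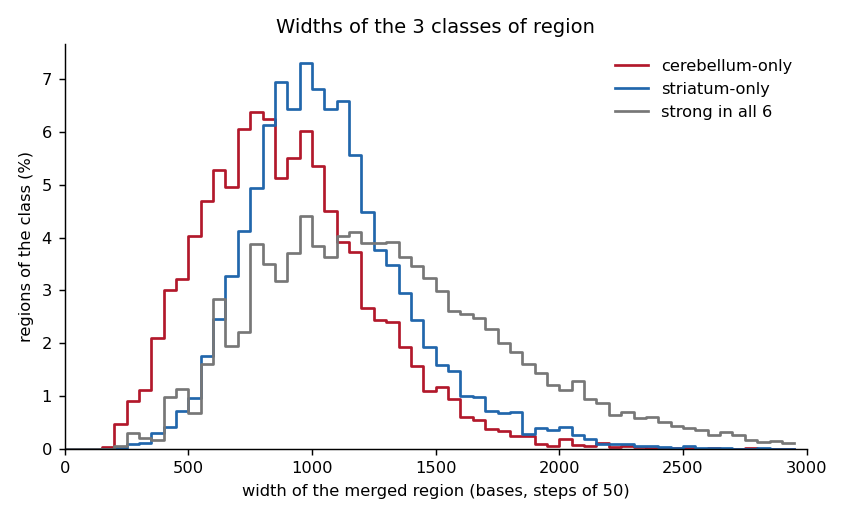
Distribution of the widths of merged regions (x axis, bases, in steps of 50) as a percentage of each class (y axis), for the 8382 cerebellum-only, 8492 striatum-only and 20077 regions strong in all 6 libraries. The cerebellum-only curve lies to the left of the striatum-only curve (medians of 865 and 1027 bases), and regions wider than 3000 bases are not drawn.

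The other tissues of the same bats were not used to choose the regions. Striatum-only regions were open in cortex more often than cerebellum-only regions. The rules of the classes are unequal, since a striatum-only region is strong in 4 lists and absent from 2. A cerebellum-only region is strong in 2 and absent from 4. The part of these rules in the difference was not tested. Peaks of single cortical libraries covered 49.9% to 56.9% of striatum-only and 27.3% to 32.9% of cerebellum-only regions, so the 8 libraries did not overlap between the classes. Both shares were below the 68.9% to 73.7% found over all regions with a strong peak. Strong cortical peaks covered 16.5% to 21.6% and 4.94% to 7.72%, again below the 40% to 41.8% of all regions with a strong peak. A peak in all 8 cortical libraries was found at 3432 striatum-only regions (40.4%) and 1535 cerebellum-only regions (18.3%), and none in any cortical library at 2805 and 4554. The cortical pattern went with little change in strength: striatum-only regions with peaks in all 8 cortical libraries had a median of 9.16-fold enrichment in their weakest striatal library, and those with none 9.05-fold. For cerebellum-only regions these values were 7.12- and 6.67-fold.

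Outside the brain the classes were closer, except in 1 library. Peaks of testis covered 22.8% and 23.2% of cerebellum-only regions (bats 1 and 3) and 27.4% and 20.2% of striatum-only regions. In liver the shares were 18.6% and 16.6% for cerebellum-only and 18.4% and 16.8% for striatum-only. All lay below the shares of all regions with a strong peak, 46.5% and 43.2% in testis and 26.3% and 37.2% in liver. Muscle of bat 1 stood apart: it had a peak at 48.8% of striatum-only regions, close to the cortical libraries, while muscle of bat 3 had one at 17.2%. Over all regions with a strong peak these libraries had one at 54.4% and 48.4%. At cerebellum-only regions the muscle libraries were similar, at 24.3% and 27.2%. At 3170 striatum-only regions muscle of bat 1 had a peak and muscle of bat 3 did not, against 482 the other way. Over all 4145 striatum-only regions with a peak in muscle of bat 1, its peaks had a median enrichment of 2.69-fold and a median rank of 71205. Strong peaks covered 15.5% of striatum-only regions in muscle of bat 1 and 4.26% in muscle of bat 3. Over all regions with a strong peak these shares were 33.6% and 31%. Of the striatum-only regions with no cortical peak, 1095 had a peak in muscle of bat 1 and 283 in muscle of bat 3. What moves with this in that library was not tested. The library bears on how many regions were seen nowhere else: 1954 cerebellum-only and 1076 striatum-only regions had no peak in any of the 14 other libraries, and without muscle of bat 1 these rose to 2131 and 1562.

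**Figure D3:**
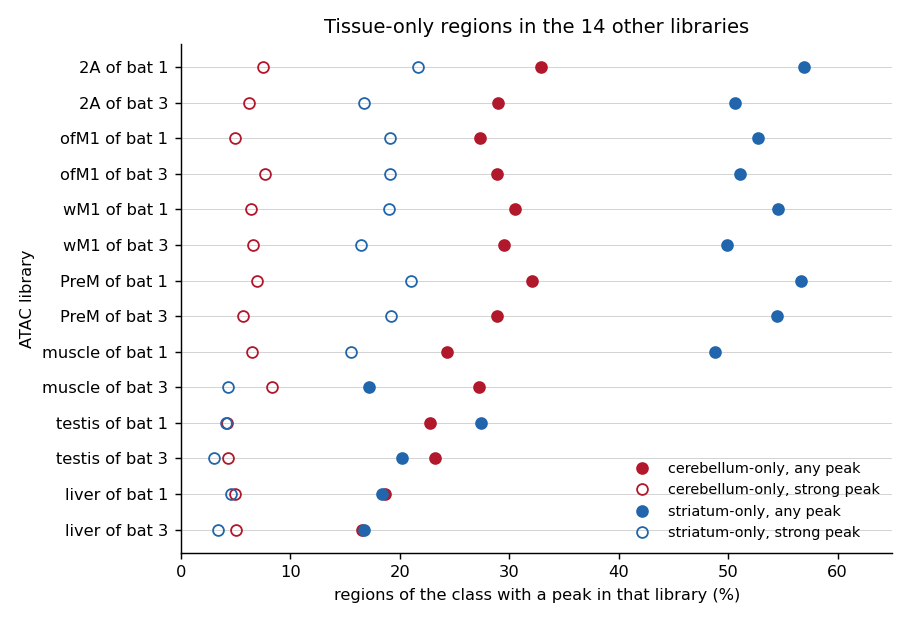
Percentage of cerebellum-only (red) and striatum-only (blue) regions that overlap a peak (filled) or a strong peak (open) of each of the 14 other ATAC libraries (y axis). The blue points of the 8 cortical libraries lie between 49.9% and 56.9%, that of muscle of bat 1 just below them at 48.8%, and that of muscle of bat 3 at 17.2%.

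The balance between the classes differed along the genome, and did so alike in both animals. On the 18 scaffolds with at least 100 tissue-only regions, which hold 16862 of them, the share that was cerebellum-only had a median of 49.3% and ranged from 19.5% to 63%. Of these scaffolds, 6 were below 40% and 3 above 60%. The lowest was NW_023416289.1, with 69 cerebellum-only and 285 striatum-only regions, or 2.94% and 12.1% of its regions with a strong peak. When the classes were made in each bat alone, its cerebellum-only share was 24.3% in bat 1 and 18.2% in bat 3. NW_023416292.1 followed, with 99 and 236 regions (29.6%), and 35.4% and 28.6% in the single bats. At the other end, NW_023416312.1 had 303 cerebellum-only and 178 striatum-only regions, and its shares in the single bats were 54.7% and 64.2%. That scaffold also had the fewest strong regions for its length, 22.4 per Mb against a median of 50.3 over the 18. Across the 18 scaffolds the shares in bats 1 and 3 had a Pearson correlation of 0.981 and a Spearman correlation of 0.965, given as a description, since scaffolds share their libraries and differ in size. The look along scaffolds was added after the data were seen, as were those by distance and window.

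**Figure D4:**
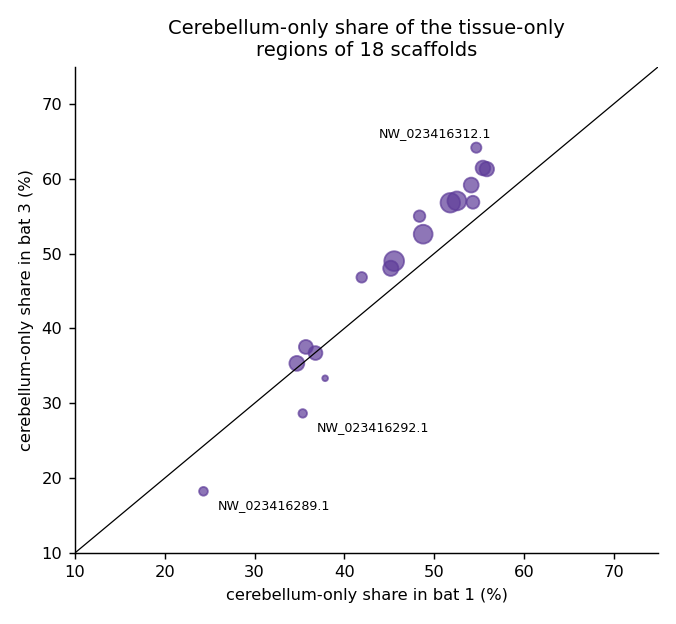
Share of tissue-only regions that were cerebellum-only, on 18 scaffolds, in bat 1 (x axis, %) and bat 3 (y axis, %), each classed from the libraries of that animal alone, with point area in proportion to the number of tissue-only regions and the line marking equal shares. NW_023416289.1 is lowest in both animals, at 24.3% and 18.2%, and NW_023416312.1 is the highest of bat 3 at 64.2%.

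Distances between regions were counted with the class strong in all 6 beside them. Of cerebellum-only regions, 32.4% had another within 20 kb (midpoint to midpoint), 18.6% had a striatum-only one and 28.9% one strong in all 6. Of striatum-only regions, 24.7% had another within 20 kb, 17.3% had a cerebellum-only one and 35% one strong in all 6. Regions strong in all 6, the most numerous class, had another of their own within 20 kb in 44.4% of cases. They numbered 20077, against 8382 cerebellum-only and 8492 striatum-only regions, and a larger class has more near neighbours by number alone. Their share is therefore not comparable with those of the tissue-only classes. Between the tissue-only classes, which are of similar size, the own-class share was above that of the opposite class in both. The difference was not tested. In windows of 1 Mb, both classes had a median of 4 regions over the 1902 windows with a strong peak. A pair of neighbouring windows of scaffold NW_023416307.1 were the densest stretch for the cerebellum. Bases 97000001 to 98000000 held 30 cerebellum-only and 2 striatum-only regions, and bases 96000001 to 97000000 held 21 and 1. By bat, the first of these windows held 37 cerebellum-only regions in bat 1 and 41 in bat 3, against 3 and 2 striatum-only. For the striatum the fullest windows held 19 regions each, beside 1 to 9 cerebellum-only regions. The window with the fewest of these, bases 77000001 to 78000000 of scaffold NW_023416310.1, had 1 cerebellum-only region. By bat it held 21 and 20 striatum-only and 6 and 2 cerebellum-only regions. The window with 9 was bases 13000001 to 14000000 of scaffold NW_023416306.1. These windows were picked as the fullest, after their counts were seen.

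At the 56901 regions with a peak in all 6 libraries, strength was compared by place: the regions were ordered by -log10 p within each library, from 1 for the strongest to 56901. Each place was converted to a score, the value of the standard normal distribution at that quantile, and tested with limma. Of these regions, 26901 differed between cerebellum and striatum at an adjusted p under 0.05 (47.3%), 13142 of them placed higher in cerebellum (23.1%) and 13759 placed higher in striatum (24.2%). The called regions were often far apart. The mean places differed by over 20000 for 5060 of those higher in cerebellum and 4496 of those higher in striatum, and by over 40000 for 530 and 445. In 13132 and 13734 of the 2 called sets the libraries of the tissues did not overlap. That holds for 31.5% (cerebellum first) and 32.6% (striatum first) of all shared regions, and was also found at 9596 of the 30000 regions that were not called. The places of caudate and putamen of 1 bat entered as separate values. With either cerebellar library left out, which leaves 1 library assumed to vary like the others, the count was 17869 without bat 1 and 17603 without bat 3.

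**Figure D5:**
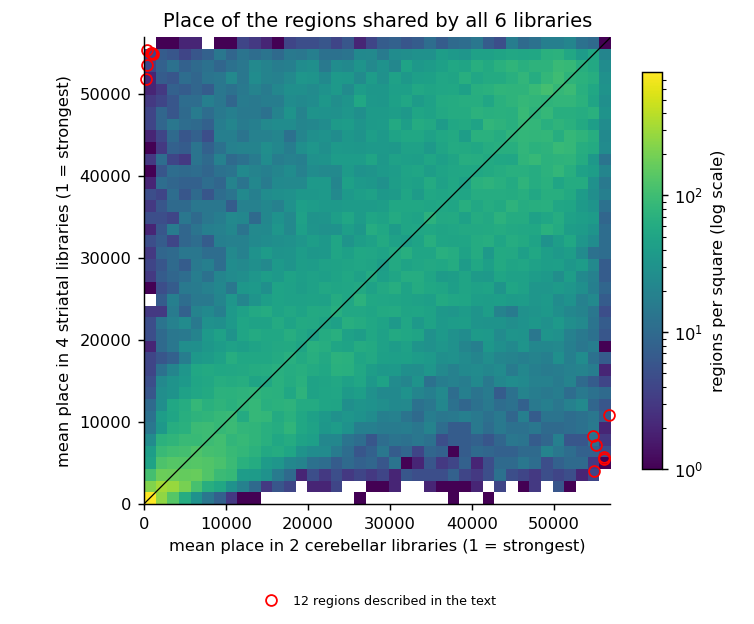
Mean place of the 56901 shared regions in the 2 cerebellar libraries (x axis) and in the 4 striatal libraries (y axis), where 1 is the strongest, with the number of regions per square on a log colour scale and a line of equal places. Regions strong in both tissues crowd the lower left corner, and the 12 regions described by position (red circles) lie in the other 2 corners off the line.

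The largest differences toward the cerebellum were at regions among the strongest shared ones in cerebellum and among the weakest shared ones in striatum. In the whole striatal lists these 6 regions ranked from 111531 to 177759, so some lay near the end of a list. The deepest, in the caudate of bat 3, had a -log10 p of 5.01, where that list of 181880 intervals ended at 4.65. On scaffold NW_023416288.1, bases 14686503 to 14687659, the places were 313 and 377 in cerebellum, 56256 and 53976 in caudate and 56410 and 54765 in putamen. Enrichment was 23.2- and 22.7-fold in cerebellum and 2.63- to 3.47-fold in the 4 striatal libraries, and the peak spanned 1157 and 1125 bases in cerebellum and 247 to 590 in striatum. The difference in score was 4.55 ± 0.237 (SE, limma adjusted p = 0.000188). At bases 27099694 to 27100689 of the same scaffold the places were 691 and 972 in cerebellum and 53364 to 56679 in striatum, a score difference of 4.26 ± 0.36 (SE, limma adjusted p = 0.000342). Both regions had a peak in all 8 cortical libraries, a strong one in 1 of them at the first and in 5 at the second.

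Scaffold NW_023416284.1 held 3 of the 6 regions with the largest differences toward the cerebellum. At bases 155427020 to 155428123 the cerebellar places were 531 and 258 and the striatal ones 50944 to 56500. At bases 32509943 to 32510647 they were 852 and 1348 against 52987 to 56605, and this region had the highest cerebellar folds of the 6, 29 and 28.8, with no strong peak in cortex. At bases 120114006 to 120114657 they were 1195 and 748 against 52940 to 56187, where the cortex had a strong peak in 8 of 8 libraries. The fifth by size, at bases 67820067 to 67821137 of scaffold NW_023416308.1, had cerebellar places of 178 and 272 and striatal ones of 49243 to 53736. For these 4 the score differences were 4.02 to 4.2, with limma adjusted p of 0.000188 to 0.000307. The 6 were picked among called regions without overlap between the tissues, so the separation of their libraries follows from the choice.

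Toward the striatum the largest differences were somewhat smaller, at -3.7 to -3.57 in score (cerebellum minus striatum). The first, at bases 10109117 to 10110753 of scaffold NW_023416290.1, had places of 55413 and 56762 in cerebellum, 3793 and 4694 in caudate and 4621 and 8905 in putamen. Its peaks spanned 316 and 150 bases in cerebellum and 1270 to 1490 in striatum, and the score difference was -3.7 ± 0.261 (SE, limma adjusted p = 0.000235). All 8 cortical libraries had a strong peak there, as they did at bases 86753728 to 86755424 of scaffold NW_023416295.1. In that region enrichment was 2.08- and 2.41-fold in cerebellum, 18.5- and 18.5-fold in caudate and 22.2- and 15.4-fold in putamen. The region at bases 78053114 to 78054377 of scaffold NW_023416288.1 had no peak in any cortical library. Enrichment there was 20.4- and 22.6-fold in caudate, 20.3- and 13.7-fold in putamen, and 2.02- and 2.18-fold in cerebellum. The other 3, at bases 63544032 to 63545890 of scaffold NW_023416311.1 and at bases 64871341 to 64872950 and 71990318 to 71991773 of scaffold NW_023416286.1, had at most 1 strong cortical peak among them, and cerebellar places of 52694 to 56894. The putamen of bat 3 was the weakest of the 4 striatal libraries in 5 of the 6 regions. In the whole cerebellar lists the 6 regions ranked from 132080 to 186919, so some lay at the very end of a list. The deepest, in the cerebellum of bat 3, had a -log10 p of 3.54, where that list of 187104 intervals ended at 3.53.

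Differences in place were repeated between the animals. The 5% of shared regions placed most toward the cerebellum in bat 1 (2846 regions) kept that direction in bat 3 in 99.4% of cases, with a median score difference of 1.96 in bat 1 and 1.82 in bat 3. The 5% placed most toward the striatum in bat 1 kept it in 98.5%, with medians of -1.98 and -1.50. Choosing in bat 3 and reading bat 1 gave 99.4% and 97.8%. Over all shared regions the direction was the same in 85.3%.

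Among the shared regions, strong cortical peaks were also more frequent at those placed higher in striatum. Most libraries outside the brain had the same direction. Cortical libraries had a strong peak at 60.5% to 63.8% of the regions placed higher in striatum and at 42% to 46.2% of those placed higher in cerebellum, with no overlap among the 8 libraries. For all shared regions the range was 54.9% to 57.6%. Cortical peaks of any rank did not separate the 2 sets, at 86.5% to 90.9% and 86.4% to 92.9%. In testis the shares of strong peaks were 39.5% and 36.1% at regions higher in striatum and 30.2% and 27% at those higher in cerebellum (bats 1 and 3), against 39.1% and 35.3% of all shared regions. In liver they were 14.8% and 32.8% at regions higher in striatum and 12.8% and 29.7% at those higher in cerebellum. Muscle of bat 1 had 50.8% and 42.3%, and muscle of bat 3 was nearly level at 42.6% and 42.5%. The difference was therefore not particular to the cortex.

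Width was tested at the same shared regions, as the bases covered by a library's peaks in the region, on a log2 scale and relative to the library's median. In limma, 20142 regions differed at an adjusted p under 0.05 (35.4%), 11171 of them wider in cerebellum (19.6%) and 8971 wider in striatum (15.8%). Width and place went together: of the regions placed higher in cerebellum 48% were also called wider there and 2.43% wider in striatum, and of those placed higher in striatum 37% were called wider there and 4.99% wider in cerebellum. Both come from the same peaks, so the second is not independent of the first. The direction of the width calls was less stable than that of the places. Wider in cerebellum were 55.5% of all calls, but 41.3% of 13607 without the cerebellum of bat 1 and 40.7% of 12546 without that of bat 3, and 49.3% of 17445 with widths quantile normalised. The count was also 13290 without the caudate of bat 1. Widths of caudate and putamen of 1 bat entered as separate values. With the 2 parts averaged per animal, 13282 regions were called in place of 20142.

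Some shared regions were several times broader in 1 tissue than in the other. The log2 differences given for them are relative to the library medians, 640 and 602 bases in cerebellum and 756 to 911 in striatum. They are therefore larger than the plain ratio of the spans toward the cerebellum, and smaller toward the striatum. At bases 75670053 to 75671715 of scaffold NW_023416286.1, peaks spanned 1474 and 1663 bases in cerebellum, 217 and 192 in caudate and 276 and 223 in putamen, a log2 difference of 3.22 ± 0.18 (SE, limma adjusted p = 0.000538). At bases 48236131 to 48238008 of scaffold NW_023416290.1 they spanned 1810 and 1795 bases in cerebellum and 225 to 399 in striatum. Scaffold NW_023416285.1 had the widest cerebellar peaks among the regions named by width, 2837 and 2734 bases (bases 71869072 to 71872083), against 251 and 161 in caudate and 737 and 789 in putamen (log2 difference 3.25 ± 0.669, SE, limma adjusted p = 0.0141). That call was lost without either cerebellar library, at adjusted p of 0.0568 and 0.0612.

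In the other direction, the peaks at bases 62342172 to 62344080 of scaffold NW_023416310.1 spanned 187 and 150 bases in cerebellum and 1872 to 1909 in the 4 striatal libraries, a log2 difference of -3.08 ± 0.131 (SE, limma adjusted p = 0.000538). The striatal values differed by less than 40 bases there, the tightest of the 6. Peaks spanned 2820 to 3231 bases in striatum and 150 and 471 in cerebellum at bases 17205364 to 17208738 of scaffold NW_023416291.1, and 1683 to 2186 against 150 and 201 at bases 73473703 to 73475938 of scaffold NW_023416286.1. At each of the 3 regions 1 cerebellar library had exactly 150 bases, the smallest width at any region named by place or width. The log2 differences rest partly on that value, and whether it is a floor of the lists was not tested. None of these 3 was near the top of a list. Their striatal places ran from 23802 to 45658, and their enrichment in striatum was 3.77- to 8.18-fold.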

How the data were processed

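ATAC-seq peaks of cerebellum, caudate and putamen of bats 1 and 3 were used. The submitters' processing notes name Bowtie2 and MACS2, without roles or settings. The authors deposited 1 peak list per library, not pooled, in which each peak has a -log10 p, a -log10 q and a fold enrichment (the ratio to background). No read depth goes with the deposited lists. Rows with the same interval were merged, keeping the highest fold and -log10 p, and regions were formed from intervals sharing 1 base or more, in Python 3.11.15. A region's value in a library is its highest interval's, and its width the bases its intervals cover.

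Rank scores and log2 widths were fitted with limma 3.58.1 (R 4.3.3; group as the only term, 2-sided, Benjamini-Hochberg over all 56901 shared regions), which offset zero variances among widths. Exact permutation tests used the 6 libraries. The fit was tested on simulated scores, and the classes on simulated lists. Same-numbered libraries come from 1 animal, so the animal as a block was an alternative; differences between bats 1 and 3 correlated across regions at 0.0901, 0.0492 and 0.129 between cerebellum and caudate, cerebellum and putamen, and caudate and putamen.

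The comparison, lists and alternatives were chosen with earlier results of these data known. The rule named, per class, the 6 regions with the lowest worst rank, and among called regions without overlap between tissues the 6 (place) or 3 (width) largest differences each way. Genes, marker lists and sequence motifs were not analysed here, as they need positions of genes or a genome of the peaks' build. RNA libraries were not used.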

Additional observations from a re-analysis of the deposited data

How the results depend on the processing

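The counts of tissue-only regions followed the thresholds. For cerebellum-only and striatum-only regions they were 3070 and 2344 with the 25000 strongest peaks as strong, 21752 and 25291 with the 100000 strongest, 18269 and 15109 when only strong peaks counted against absence, and 53266 and 55663 with every peak as present. Absence among the 100000 strongest of each library gave 12894 cerebellum-only regions. Overlap of at least 50% with the region gave 10662 and 15235, the caudate as the only striatal part 9854 and 13531, and bat 1 alone, with regions merged over its 3 lists only, 11736 and 13094. The cause of these shifts was not tested beyond the looser or stricter rule itself. Leaving out 1 library gave 8539 to 10763 cerebellum-only and 8775 to 10340 striatum-only regions, where fewer lists have to meet the rule. The regions called by place numbered 17603 to 25374 with 1 library left out. Those called by width numbered 12546 to 17454, and 13282 with caudate and putamen averaged per animal, 11008 with caudate only and 7400 with putamen only, all with fewer libraries in the fit. With the animal as a replicate block, 25443 regions were called by place and 18159 by width, of which 24798 and 17383 were also called without it, and the block moved no count by over 1.5 times. Permuted within animals, as a paired design, the differences in overlap (0.404) and in width (-169 bases) had an exact p of 0.111 each, the smallest that 9 arrangements allow. Leaving out 1 library moved the difference in overlap between 0.393 and 0.421 and that in median width between -191 and -138 bases. The 18 regions named by place or width were picked as the largest called differences without overlap between tissues. That choice left little room for a reversal, so its absence is no evidence of stability. Of 240 values of these regions under the alternatives, 0 reversed and 3, all of width, lost their call. Of these, 2 belong to region 71869072 to 71872083 of NW_023416285.1, without either cerebellar library (adjusted p of 0.0568 and 0.0612 in limma), and the third is region 17205364 to 17208738 of NW_023416291.1, with putamen only (-3.09, limma adjusted p = 0.0552).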
